A study of Homo sapiens with 6 samples.

Results

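The genes described are the 3 retinaldehyde dehydrogenases ALDH1A1, ALDH1A2 and ALDH1A3, the 3 retinoic acid receptors RARA, RARB and RARG, and 4 genes that handle the same ligand, CRABP2, CYP26A1, CYP26B1 and DHRS3. Members were taken as every probe set whose platform annotation gives 1 of these symbols alone, and 23 probe sets were found for the 10 genes, out of 54613 probe sets and 19775 named genes on the array. The genes were selected on earlier results of the same contrast, the measured difference between these lines, so their values are a description and no test is drawn from them. PC-3 is an established human prostate carcinoma line, first grown from a metastasis to bone, and its sublines PC-3/Mc and PC-3/S were each measured on 3 one-colour arrays, 6 in all. No treatment, genotype change or time point is given for either line, and cells were lysed before confluence. The study concerns how the epithelial-mesenchymal transition bears on attributes of tumor-initiating cells. From what is known of it, PC-3/Mc is the subline rich in such cells and PC-3/S the one with mesenchymal features. Each condition is therefore represented by 1 cell line, and differences between lines cannot be told apart from other differences between 2 cell populations of the same origin. The labels call the arrays biological replicates without naming separate cultures, so errors and p-values cover only the spread among the 6 arrays, and that spread may be technical.

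Retinoic acid is made from vitamin A in a pair of oxidation steps: dehydrogenases turn retinol into retinaldehyde, and the ALDH1A enzymes turn retinaldehyde irreversibly into retinoic acid. CRABP2 carries the acid to the nucleus, where RAR proteins bound to RXR partners sit on direct repeats of a short hexamer and switch from repression to activation when the ligand binds. CYP26 enzymes oxidise and clear the acid, and DHRS3 turns retinaldehyde back into retinol. RARB, CYP26A1, CRABP2 and DHRS3 are themselves classical retinoic acid targets, and through CYP26A1 and DHRS3 the pathway limits itself. In prostate epithelium retinoids favour differentiation, RARB is often silenced in prostate carcinoma, and ALDH activity is widely used to mark tumor-initiating cells.

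All values are levels in log2 units, and each difference is PC-3/Mc minus PC-3/S with its standard error, on n = 3 arrays per line. Array medians lay between 4.98 and 5.09, and correlations across probe sets were 0.995 to 0.997 within a line and 0.949 to 0.953 between lines. Detection calls were not used here. PC-3 cells lack CTNNA1 through a known deletion, and that gene read between 3.51 and 5.18 on its 5 probe sets, and 5.18 is taken as a rough floor: a reading at or under it may be background, and a fold against a line that lies there is a lower bound. Of the 5 epithelial markers checked, KRT8, KRT18, EPCAM and CDH1 were called higher in PC-3/Mc and KRT19 lower, and their summed level was 52.9 to 53.3 in PC-3/Mc and 42.0 to 42.5 in PC-3/S. The part of this shift in the results below was not tested. The leukocyte markers PTPRC, CD3E and CD14 were under the floor in both lines, and of 4 endothelial markers CDH5 and VWF had both line means under it, PECAM1 was called higher (0.60) and KDR lower (-2.17). Because fewer expressing cells and less RNA per cell cannot be told apart in bulk RNA, every level below is an average over the culture.

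Over the whole group, ALDH1A2 and CRABP2 separated the lines, the bright ALDH1A3 probe set did not, and the RARB and CYP26A1 probe sets read in the background range in both. The call was an adjusted p under 0.05 in limma over all probe sets. It was met by 6 of the 23 probe sets, all higher in PC-3/Mc, against 35.9% of all probe sets in either direction, 18.4% higher and 17.5% lower. For the same 6 the PC-3/Mc and PC-3/S arrays were fully apart, against 45.3% of all probe sets. With each gene taken by its probe set of highest mean, 3 of 10 were called, against 43.7% of all genes, and the same 3 were fully apart, against 53.1%. Since the members were chosen with this contrast known, nothing is read from these counts. The median difference was 0.12 over the 23 and -0.01 over all probe sets. Both line means were at or under the floor for 12 of the 23, against 49.8% of all probe sets.

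**Figure D1:**
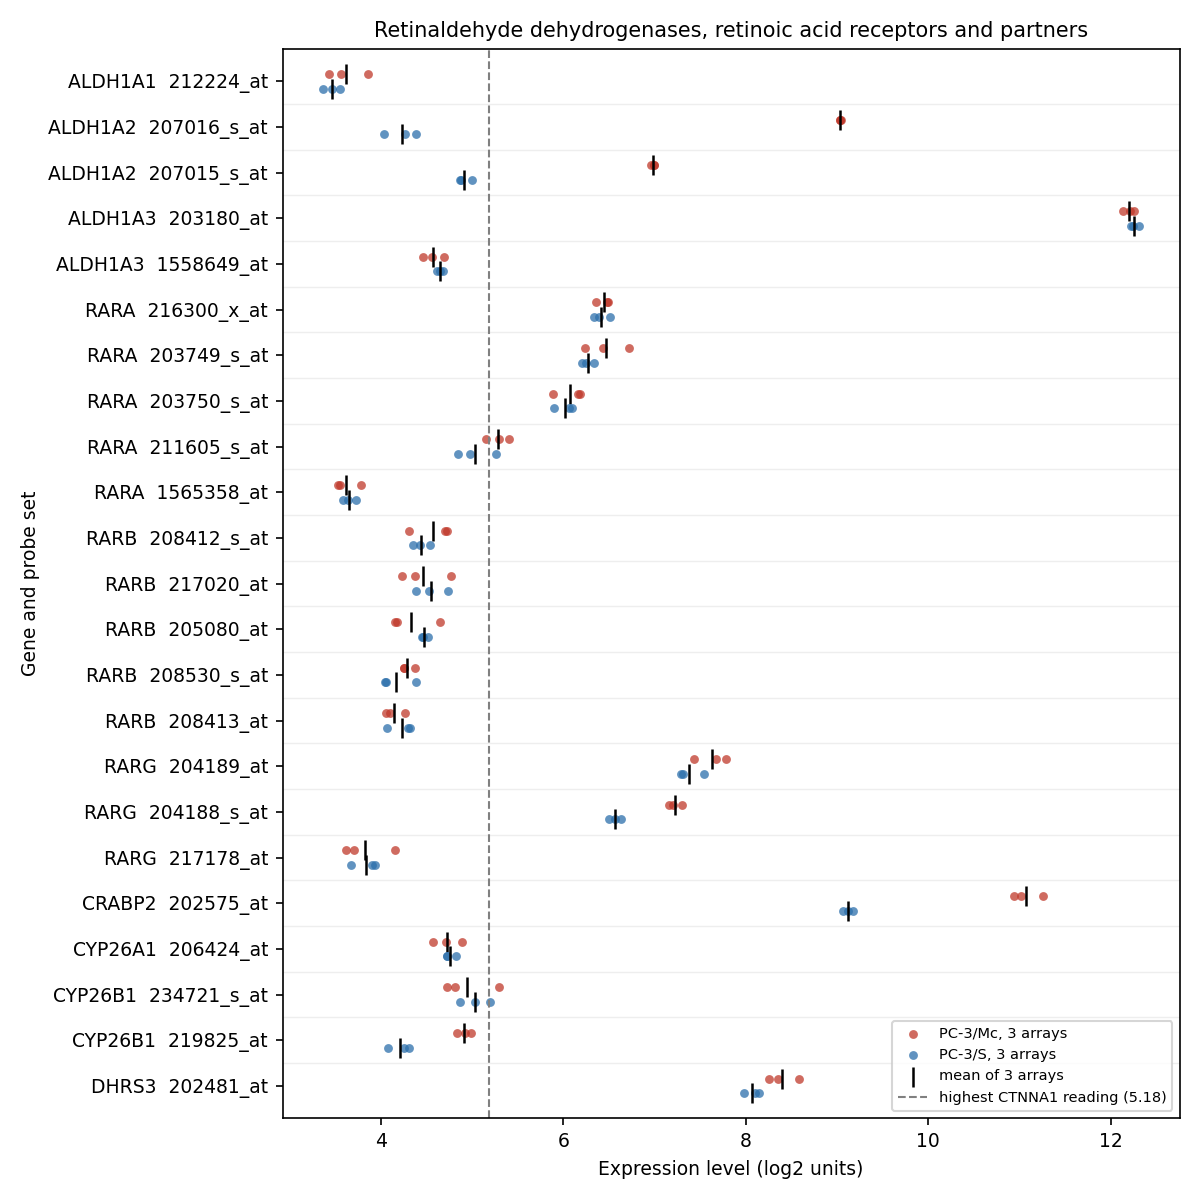
Levels of all 23 probe sets of the 10 genes (log2 units), with a point per array, red for PC-3/Mc and blue for PC-3/S, a black bar at the mean of each line and a dashed line at the highest CTNNA1 reading of 5.18. Both ALDH1A2 probe sets have their PC-3/S arrays left of the dashed line and their PC-3/Mc arrays right of it, CRABP2 is separated with both lines bright, and the 203180_at probe set of ALDH1A3 is bright and overlapping.

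Among the retinaldehyde dehydrogenases, which make retinoic acid, ALDH1A2 differed by far the most. On probe set 207016_s_at it read 9.04, 9.03 and 9.03 in PC-3/Mc and 4.27, 4.38 and 4.03 in PC-3/S. The PC-3/Mc arrays hardly varied (SD 0.01), and every PC-3/S array lay under the floor. The difference was 4.81 ± 0.10, so ALDH1A2 exceeded its PC-3/S level at least 14.5-fold. On the other probe set, 207015_s_at, it read 6.99, 6.96 and 6.99 in PC-3/Mc and 5.0, 4.87 and 4.88 in PC-3/S. That difference was smaller, 2.06 ± 0.08 or at least 3.49-fold, with the PC-3/S arrays again under the floor. Both probe sets carry the suffix of sets that can bind several transcripts, and neither remained when such sets were left out.

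ALDH1A3, the isozyme of this family found in many epithelial tumors, read 12.21, 12.26 and 12.14 in PC-3/Mc and 12.22, 12.24 and 12.31 in PC-3/S on probe set 203180_at. The arrays overlapped, and the mean level stood at the 99.4th percentile of all probe sets. The difference was -0.06 ± 0.08, with a 95% confidence interval from -0.24 to 0.13. Its other probe set, 1558649_at, stayed between 4.46 and 4.69 on all 6 arrays, under the floor. ALDH1A1, the isozyme most often linked to the ALDH activity assay of stem cells, has 1 probe set, 212224_at, and read 3.37 to 3.86 on all arrays, also under the floor. So of the 3 isozymes, ALDH1A3 was above the floor in both lines, ALDH1A2 in PC-3/Mc, and ALDH1A1 in neither.

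The promoter of ALDH1A2 is shown because this gene carries the largest difference. The 250 bases before its most upstream RefSeq start lie at chr15:58065712-58065961 (GRCh38.p14, minus strand), and capitals mark each CG dinucleotide, the letters at which DNA can be methylated.
ALDH1A2: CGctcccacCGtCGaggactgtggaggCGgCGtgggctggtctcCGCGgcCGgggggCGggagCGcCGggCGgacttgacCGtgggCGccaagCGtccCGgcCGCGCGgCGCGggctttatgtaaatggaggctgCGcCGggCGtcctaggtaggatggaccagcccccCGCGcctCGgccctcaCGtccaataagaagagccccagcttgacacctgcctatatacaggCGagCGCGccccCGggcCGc
They hold 33 CG dinucleotides, more than 91.9% of the 35116 promoter windows in the RefSeq table, whose median is 11. The other RefSeq start of ALDH1A2, at chr15:58014024-58014273, has 1 CG dinucleotide in its 250 bases. ALDH1A3, whose bright probe set overlapped between the lines, has 38, more than 96.7% of windows, so a high number is not particular to ALDH1A2. The antisense noncoding gene ALDH1A2-AS1 is annotated across the same bases on the other strand. Methylation was not measured here.

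Of the genes that bind or interconvert the ligand, CRABP2, the protein that hands retinoic acid to the receptors, read 11.26, 11.02 and 10.94 in PC-3/Mc and 9.12, 9.07 and 9.17 in PC-3/S on its single probe set 202575_at. All arrays were far above the floor, and the lowest PC-3/Mc array lay well above the highest PC-3/S array. The difference was 1.95 ± 0.10, or 3.87-fold. DHRS3, the retinaldehyde reductase, read 8.58, 8.35 and 8.26 in PC-3/Mc and 8.14, 7.98 and 8.10 in PC-3/S on probe set 202481_at. The lines did not overlap but lay close, with a difference of 0.32 ± 0.10 (1.25-fold). The DHRS3 call was lost after quantile normalization (0.23), without PC-3/Mc replicate 1 (0.23), and without PC-3/S replicate 2 (0.28) or PC-3/S replicate 3 (0.33).

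The enzymes that clear retinoic acid read low in both lines. CYP26A1, the main inducible one, stayed between 4.57 and 4.89 on probe set 206424_at, with a difference of -0.03 ± 0.10. CYP26B1 gave unequal readings on its probe sets. On 219825_at it read 4.92, 4.99 and 4.84 in PC-3/Mc and 4.25, 4.31 and 4.08 in PC-3/S, a difference of 0.70 ± 0.09 without overlap, although all 6 arrays lay under the floor and no fold is given. On 234721_s_at the arrays ran from 4.73 to 5.29 and overlapped, with a difference of -0.09 ± 0.14. In PC-3/Mc, ALDH1A2 and CRABP2 were thus above the floor on every array, while both CYP26 genes had line means at or under it.

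The receptors differed less. RARG, the receptor most abundant in epithelia, read 7.16, 7.30 and 7.20 in PC-3/Mc and 6.63, 6.50 and 6.57 in PC-3/S on probe set 204188_s_at. The lines were apart on it by 0.66 ± 0.09 (1.58-fold) without overlap. On 204189_at, the brighter probe set of RARG, the arrays read 7.67, 7.43 and 7.78 against 7.31, 7.54 and 7.29. There PC-3/Mc replicate 2 lay below PC-3/S replicate 2, and the difference was 0.24 ± 0.11. That probe set was not called, and was called higher when arrays were centred (0.29) or without PC-3/Mc replicate 2 (0.34). The third probe set of RARG, 217178_at, ran from 3.62 to 4.16, under the floor.

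RARA, the broadly expressed receptor, was above the floor in both lines on 3 of its 5 probe sets and overlapped between lines on all 5. Those 3 differed by 0.03 ± 0.09 (216300_x_at, 6.34 to 6.51 over the 6 arrays), 0.20 ± 0.12 (203749_s_at, 6.21 to 6.72) and 0.06 ± 0.10 (203750_s_at, 5.89 to 6.18). On 211605_s_at the arrays lay around the floor, from 4.85 to 5.40, and on 1565358_at under it, from 3.53 to 3.78. The largest upper limit of a 95% interval among the 5 was 0.50, on 211605_s_at. Without 1 array, 203749_s_at (0.31 without PC-3/Mc replicate 3) and 211605_s_at (0.36 without PC-3/S replicate 1) were called higher.

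RARB, the receptor gene that retinoic acid itself induces, lay under the floor on all 5 probe sets and all 6 arrays. The readings ran from 4.05 on 208530_s_at to 4.77 on 217020_at, and the differences from -0.15 ± 0.12 on 205080_at to 0.14 ± 0.12 on 208412_s_at. The lines overlapped on each of these probe sets. Without PC-3/Mc replicate 3, 205080_at was called lower (-0.31), still under the floor. RARB and CYP26A1, both known for strong induction by retinoic acid, are therefore the members without an array above 5.18 beside ALDH1A1.

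**Figure D2:**
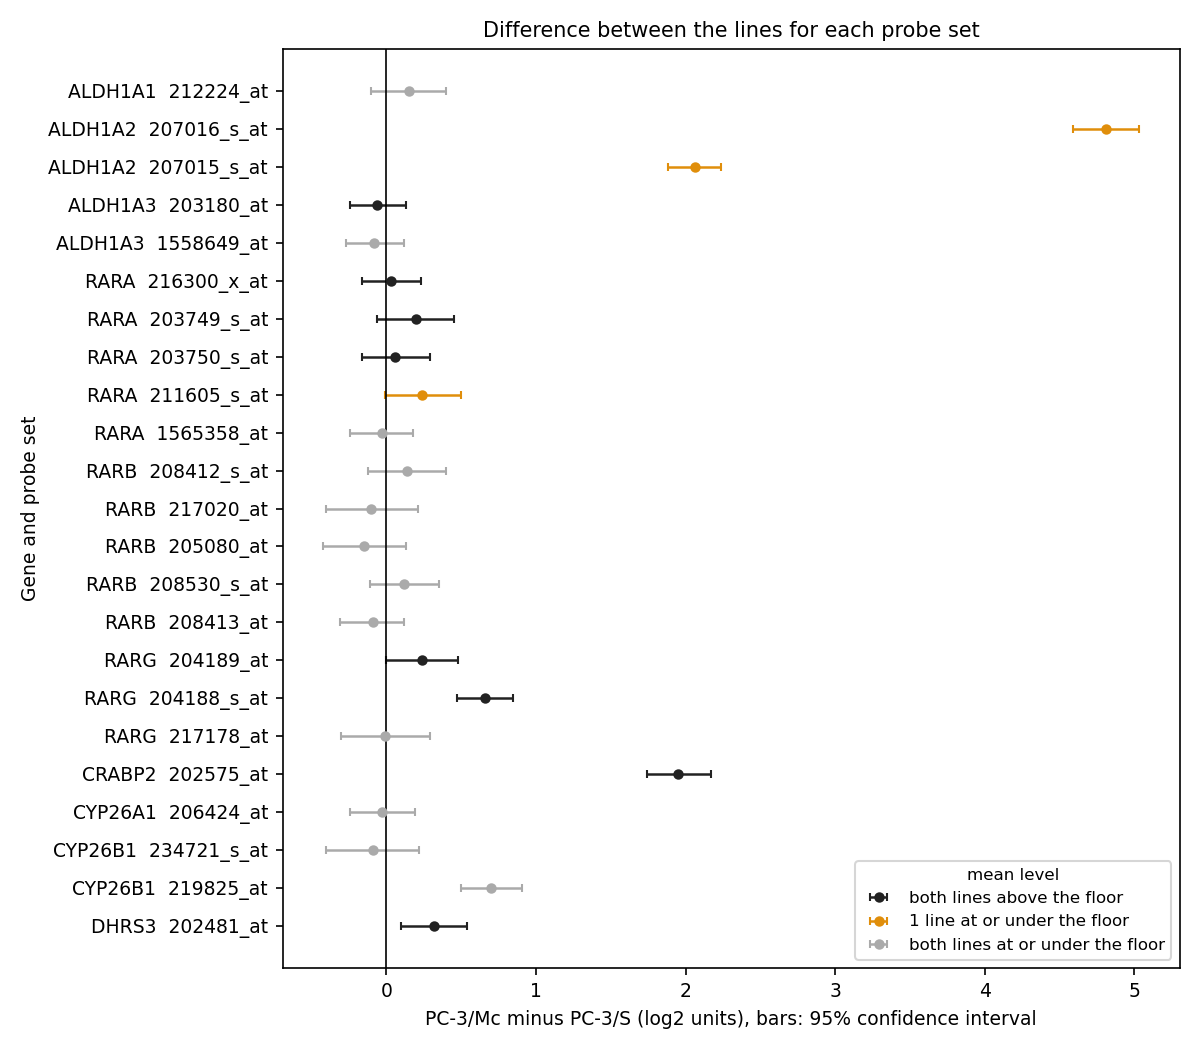
Difference between the lines for each of the 23 probe sets (PC-3/Mc minus PC-3/S, log2 units), with bars for the 95% confidence interval and colours for the position of the line means relative to the floor of 5.18. The intervals of ALDH1A2, CRABP2 and DHRS3, of RARG 204188_s_at and of CYP26B1 219825_at lie right of 0, and the CYP26B1 value is grey because both line means are under the floor. The interval of RARG 204189_at, which was not called, runs from 0.0 to 0.48.

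RARB and CYP26A1 share a feature of sequence. The letters searched are those known for retinoic acid response elements, and both genes are classical retinoic acid targets. The matches are therefore not independent of the search and are read as a description only. Promoter windows of 300 bases, 250 before and 50 after each RefSeq start, were searched on both strands for 2 hexamers in the same orientation, each spelled AGGTCA or, with another base in the middle, AGTTCA or, with another base at the start, GGGTCA or, with both changes, GGTTCA, and spaced by 1, 2 or 5 bases. The hexamers overlap as alternative spellings of a single receptor site. All 10 genes had windows, 19 in all, and a spaced repeat was found in 1 window of RARB and 1 of CYP26A1, both with the 5-base spacer. Both repeats are printed to show how alike they are, with the repeat in capitals and written on the strand on which the hexamers read as above, at chr3:25428204-25428233 (plus strand) and chr10:93073796-93073825 (minus strand) of GRCh38.p14.
RARB: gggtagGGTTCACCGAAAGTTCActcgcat
CYP26A1: acaattAGTTCACCCAAAGTTCAtctttaa
The RARB repeat spans positions -53 to -37 and the CYP26A1 repeat -90 to -74, counting the last base before the start as -1. The 5-base form was found in 0.0883% of the 35116 windows, and any of the 3 spacings in 0.259%. At least 1 hexamer was found in 9 of the 19 windows and in 38.6% of all windows. A match is a description of letters and not a measured site, and the genes without a match may be bound elsewhere.

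The wider pathway was read from 4 lists of genes, each gene by its brightest probe set, beside 43.7% of all 19775 genes called in limma, 22.3% higher and 21.4% lower in PC-3/Mc, and a median difference of -0.03. Of 38 genes that transport, store or interconvert retinoids, 31 were measured, and the other 7 are not analysed here. Among the 31, 5 were called higher and 7 lower, 19 were not called, and the median was -0.09. In both lines 16 of the 31 were at or under the floor, among them LRAT, which stores retinol as ester. LRAT had a mean of 3.89 (SD 0.10) in PC-3/Mc and 3.79 (SD 0.00) in PC-3/S.

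RBP4, the secreted carrier of retinol in plasma, was 25.5-fold lower in PC-3/Mc on its brightest probe set, and RBP7, an intracellular retinol-binding protein, was lower too. RBP4 read 6.90, 6.65 and 6.71 in PC-3/Mc and 11.41, 11.41 and 11.46 in PC-3/S on 219140_s_at, a difference of -4.67 ± 0.09 (limma adjusted p = 6.08e-12). No array of either line came near the other line, and the dimmer RBP4 probe set, 222049_s_at, differed by -0.78 ± 0.13, so that the mean of both gave -2.73. RBP7 read 5.10, 5.36 and 5.18 against 7.85, 7.82 and 7.97, a difference of -2.67 ± 0.10 (limma adjusted p = 8.23e-10). The PC-3/Mc arrays of RBP7 lay around the floor and may be background, so no fold is given. STRA6, the membrane receptor of RBP4, was lower by a smaller amount, -0.31 ± 0.08 (limma adjusted p = 0.011), a call that was lost without sets of the _x_at and _s_at kind (-0.06) or when its 3 probe sets were averaged (-0.14).

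Enzymes upstream of the ALDH1A step moved in both directions. DHRS9, which can oxidise retinol to retinaldehyde, read 8.53, 8.51 and 8.30 in PC-3/Mc and 6.44, 6.47 and 6.22 in PC-3/S, a difference of 2.07 ± 0.10 (limma adjusted p = 1.34e-08). All 3 DHRS9 probe sets were called higher, with differences up to 2.88. CYP1B1, a cytochrome that can oxidise retinol, read 8.59, 8.43 and 8.43 in PC-3/Mc and 4.41, 4.58 and 4.34 in PC-3/S, an excess of at least 9.91-fold (limma adjusted p = 2.59e-11). Its 4 probe sets were all called higher, but on 202434_s_at (0.55) both line means, 5.16 and 4.61, were under the floor. RDH10, the main retinol dehydrogenase of the embryo, overlapped between lines on its brightest probe set (-0.16 ± 0.10, limma adjusted p = 0.235) but was called lower on 2 dimmer ones, by -0.53 and -0.34. It was also called lower after quantile normalization and as the mean of its 4 probe sets, by -0.26 in both. Among aldo-keto reductases that turn retinaldehyde back to retinol, AKR1B10 was higher (1.04 ± 0.10, limma adjusted p = 2.82e-06) and AKR1C3 lower (-1.24 ± 0.10, limma adjusted p = 1.06e-06). The other called genes of the list had differences of less than 1 in size.

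**Figure D3:**
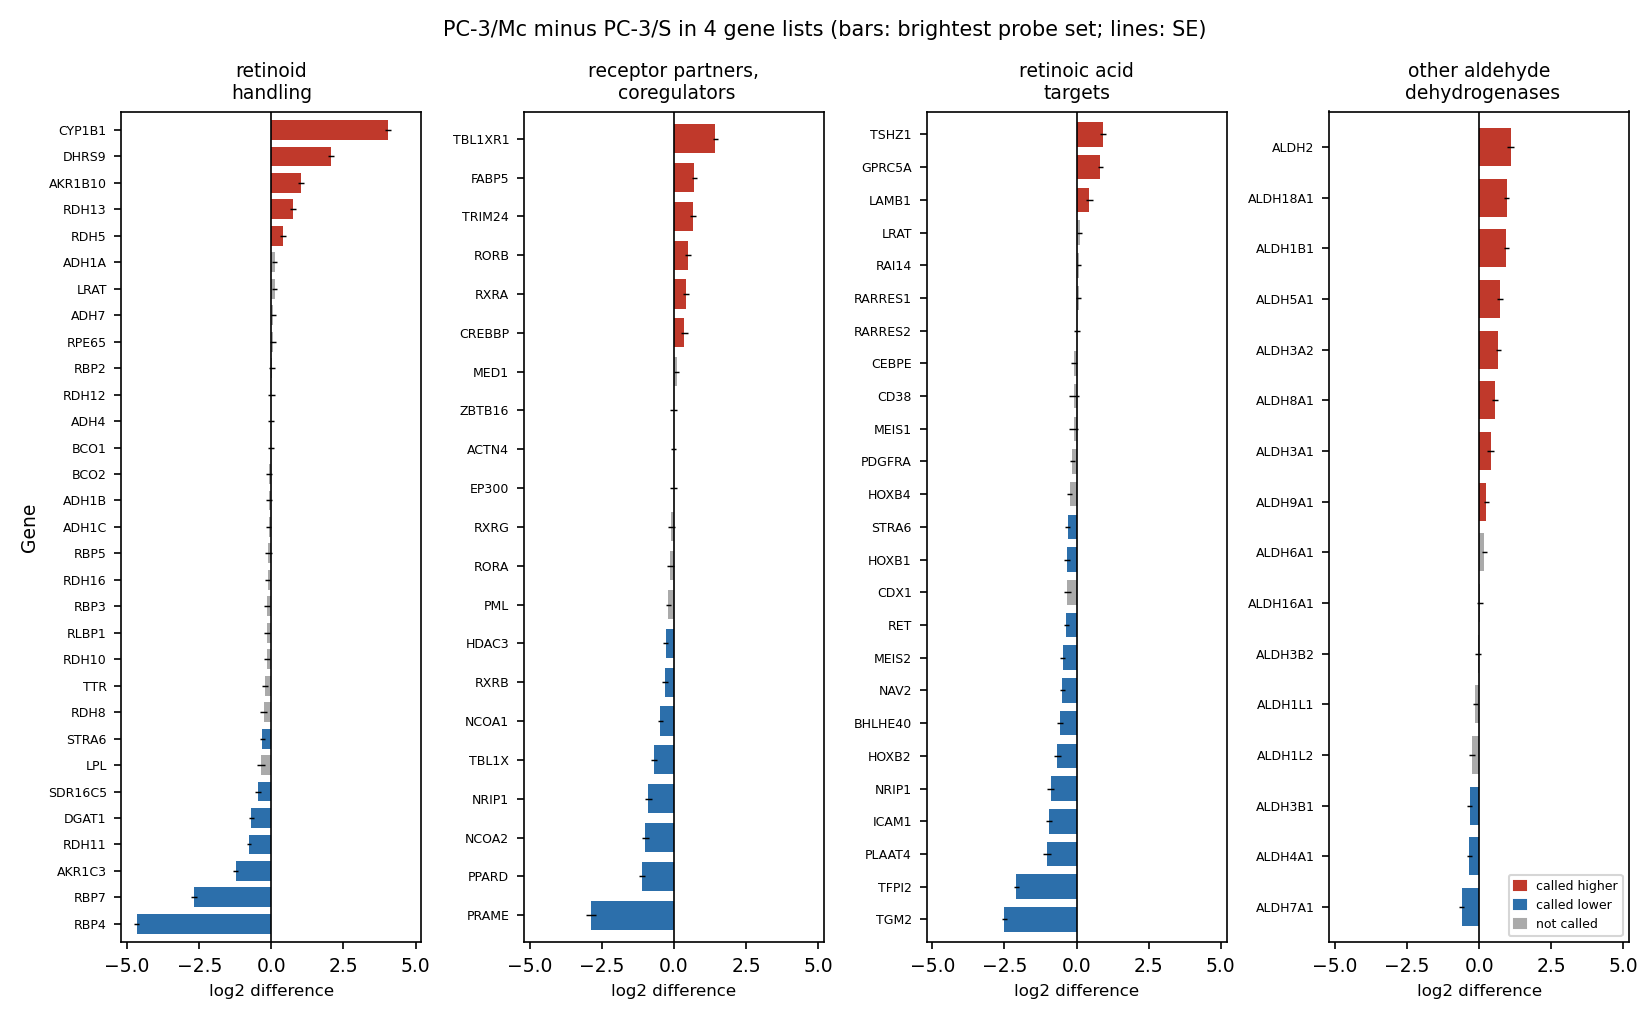
Difference between the lines (PC-3/Mc minus PC-3/S, log2 units) for each measured gene of the 4 lists, shown as bars with the standard error as a line, red where called higher, blue where called lower and grey where not called. RBP4 at -4.67 and CYP1B1 at 4.04 are the longest bars, and the list of aldehyde dehydrogenases has 8 red and 3 blue bars.

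The receptor partners and coregulators were called for 14 of 21 measured genes, 6 higher and 8 lower, with a median of -0.09, and 4 of the 25 listed are not analysed here. The RXR proteins pair with every RAR. RXRA read 7.63, 7.44 and 7.52 in PC-3/Mc and 7.22, 6.98 and 7.12 in PC-3/S and was higher by 0.42 ± 0.10 (limma adjusted p = 0.00383), with its other probe set at 1.09 ± 0.13 and the mean of both at 0.76. RXRB was lower by -0.31 ± 0.09 (limma adjusted p = 0.0183), a call that needed PC-3/Mc replicate 2 (-0.25 without it) and also PC-3/S replicate 1 (-0.31 without it). RXRG was under the floor in both lines, with a mean of 3.95 (SD 0.15) in PC-3/Mc and 4.04 (SD 0.15) in PC-3/S. FABP5, which can carry retinoic acid to the receptor PPARD, was bright in both lines and higher by 0.71 ± 0.08 (limma adjusted p = 2.58e-05).

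PPARD itself was read differently by its probe sets: 3 were called lower, the brightest by -1.10 ± 0.10 (limma adjusted p = 3.14e-06), and 242218_at was called higher by 1.25 ± 0.10. The mean of its 4 probe sets differed by -0.24. PRAME, a tumor antigen known to repress RAR signalling, read 4.43, 4.90 and 5.35 in PC-3/Mc and 7.80, 7.71 and 7.81 in PC-3/S. It was at least 5.80-fold lower (limma adjusted p = 9.47e-08), with a wider spread in PC-3/Mc (SD 0.46) than in PC-3/S (SD 0.06). TBL1XR1, which helps exchange corepressors for coactivators, was 2.71-fold higher (1.44 ± 0.09, limma adjusted p = 8.65e-08), and 5 of its 6 probe sets were called higher.

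Of 25 measured genes known to respond to retinoic acid in other cells, 3 were higher, 12 lower and 10 not called, with a median of -0.31. The split was 3 higher and 5 lower of 18 without sets of the _x_at and _s_at kind, and 4 higher and 9 lower with probe sets averaged. Of the list, 9 of 34 genes are not analysed here. STRA6, LRAT and NRIP1 are in this list and in 1 of the lists above. The members named as targets above are not in it: CRABP2 (1.95) and DHRS3 (0.32) were called higher, and RARB and CYP26A1 were under the floor. Both line means were at or under the floor for 7 of the 25, among them RET, called lower. HOXB1, HOXB2 and PLAAT4, also called lower, had PC-3/Mc means under the floor, while the 3 higher genes were above it in both lines. TGM2, the tissue transglutaminase long used as a marker of retinoic acid response, read 5.01, 4.89 and 4.86 in PC-3/Mc and 7.39, 7.39 and 7.47 in PC-3/S, at least 4.74-fold lower (limma adjusted p = 5.92e-10). All PC-3/Mc arrays were under the floor on that probe set. On 211003_x_at, where all 6 arrays lay above it, TGM2 differed by -1.48 (2.79-fold), 216183_at was not called (-0.27), and the mean of its 4 probe sets differed by -1.49. TFPI2, a protease inhibitor, was 4.27-fold lower (-2.09 ± 0.09, limma adjusted p = 3.68e-09). The 3 higher genes, chosen after their values were seen, were TSHZ1 (0.92), GPRC5A (0.83) and LAMB1 (0.44), and RARRES1 and RARRES2 were under the floor in both lines.

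The other aldehyde dehydrogenases, which oxidise aldehydes from many sources, were called for 11 of 16 genes, 8 higher and 3 lower, with a median of 0.21. ALDH2, the mitochondrial enzyme that clears acetaldehyde, read 6.89, 6.73 and 6.53 in PC-3/Mc and 5.65, 5.47 and 5.77 in PC-3/S, a difference of 1.09 ± 0.11 (limma adjusted p = 7.93e-06). ALDH1B1, its mitochondrial relative, was higher by 0.94 ± 0.09 (limma adjusted p = 2.81e-06), and its dimmer probe set by 0.53. The 3 lower genes, chosen after their values were seen, were ALDH7A1 (-0.60), ALDH4A1 (-0.34) and ALDH3B1 (-0.32).

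**Figure D4:**
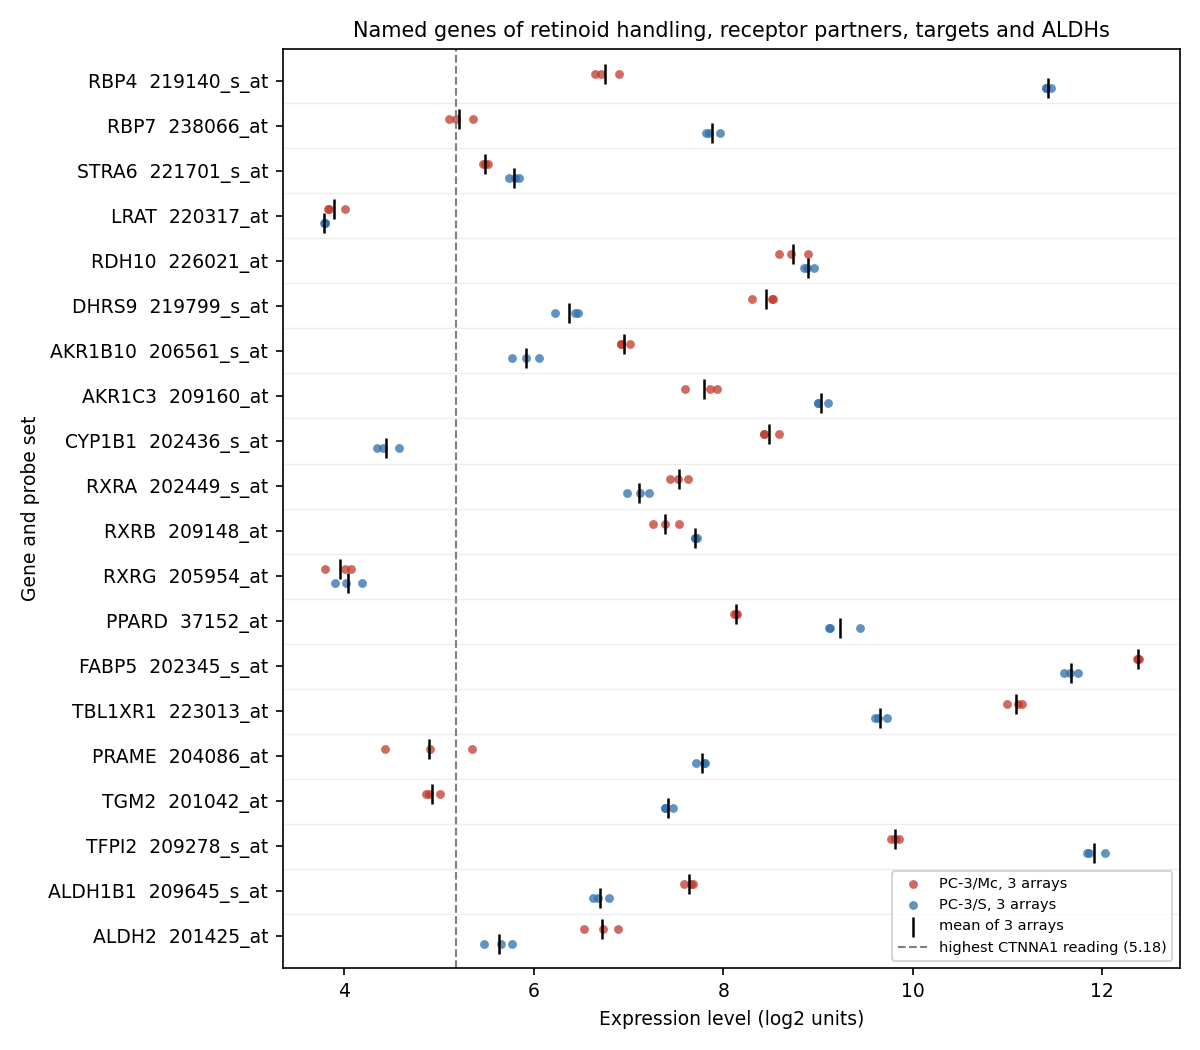
Levels (log2 units) of 20 named genes of the 4 lists on their brightest probe set, with a point per array, red for PC-3/Mc and blue for PC-3/S, a black bar at each line's mean and a dashed line at 5.18. RBP4, RBP7, PRAME and TGM2 lie to the right in PC-3/S, CYP1B1 and DHRS9 lie to the right in PC-3/Mc, and RDH10 and RXRG overlap between the lines.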

How the data were processed

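RNA of PC-3/Mc and PC-3/S (3 arrays each) was hybridised to 1-colour Affymetrix arrays with biotin label, per the labels' protocols. The authors deposited a table of log2 expression values for 54675 probe sets. Their normalization: not given in the sources used here. Base 2 was settled from the values, 2.59 to 14.45, which in base e would exceed a scanner's range, and none is below 0, so genes were not centred. The scaling between arrays stays unknown.

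After 62 control probe sets were left out, limma 3.58.1 in R 4.3.3 (lmFit, eBayes, two-sided, no covariates) was fitted to 54613 probe sets with Benjamini-Hochberg adjustment. The code was tested on simulated data. Precision is limited by the 3 arrays per line; the median standard error was 0.0984. Probe sets were named where the platform annotation gives 1 symbol (41091, against 1801 with several and 11721 with none). Lower bounds set the brighter mean against the dimmer arrays raised to 5.18.

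The members, the gene lists and the floor were chosen with earlier results of these data known. Named in the text are every member probe set, called list genes with a difference of at least 1 whose higher line mean reaches the median of all genes (5.98), anchor genes of the pathway given whatever their values, and neighbouring genes called with a difference of at least 2. The marker list for prostate luminal cells had 3 of 5 genes measured, with TMPRSS2 called lower (-0.41), and the fibroblast list had 2 of 5 called higher and 3 lower. Promoter letters are RefSeq's (GRCh38.p14). Protein sequences were not used here. Alternatives were quantile normalization, centring, a filter at the 40th percentile, a trend, sets without _x_at or _s_at, gene-level fits, a replicate block and leaving out each array.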

Additional observations from a re-analysis of the deposited data

How the results depend on the processing

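Over 12 alternatives at the level of probe sets, 256 differences of member probe sets were recomputed, and none of the called ones changed sign. All moved by less than the spread between arrays, but most alternatives could not give another outcome. The filter, block, trend and left-out sets keep each difference as it was. Leaving out 1 of 3 arrays always shifts a difference by less than that spread. Only quantile normalization and centring could have moved a difference further. The call changed for 9 of the 256, as given above for DHRS3, RARG, RARA and RARB. Leaving out probe sets ending in _x_at or _s_at lowered both the counts and the shares of calls, and the cause was not tested: 11981 of 39114 probe sets in all (5928 higher, 6053 lower), 3 of 13 member probe sets, 6 of 24 retinoid handling genes (2 higher, 4 lower), 7 of 16 partners and coregulators (3 higher, 4 lower) and 8 of 18 retinoic acid targets (3 higher, 5 lower). Leaving out each array in turn gave 16878 to 20275 calls over all probe sets and 5 to 8 over the members, 8 without PC-3/Mc replicate 3. The labels number the replicates and do not say whether the numbers pair the samples. Deviations of same-numbered arrays from their line means correlated at -0.00614, -0.214 and -0.309, and those of differently numbered arrays at -0.0785 to 0.271. With 3 arrays per line the deviations in a line add up to nothing, so these values cannot settle a pairing. With the replicate number as a block, 17443 probe sets and 6 member probe sets were called. Of 271 recomputed differences of the 20 named genes outside the members, an alternative added after seeing the data, 265 kept direction and call, and the 6 others are those given for STRA6, RDH10 and RXRB. RBP4, DHRS9, CYP1B1, AKR1B10, RXRA, FABP5 and ALDH1B1 have only probe sets ending in _x_at or _s_at. The alternative without such sets therefore does not cover these genes. Averaging a gene's probe sets moved the differences of RBP4, RXRA, PPARD, TGM2, STRA6 and RDH10 by over 1.5 times. Signal over background limits the values of RARB, CYP26A1, CYP26B1 and ALDH1A1, whose line means lay at or under the floor.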

Other observations

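Genes next to the 10 members were read to see what lies around them in the order of the RefSeq gene table, taking the 3 nearest measured protein-coding genes on each side. Of 60 neighbours 26 were called higher in PC-3/Mc, 5 lower and 29 not called, with a median difference of 0.07. So 51.7% were called beside 43.7% of all genes. Among all genes 22.3% were called higher and 21.4% lower. A single neighbour differed by at least 2, MYZAP, a gene of cardiac cell junctions next to ALDH1A2, at 7.30 and 5.03 (difference 2.27, limma adjusted p = 1.84e-08). Its PC-3/S mean lay under the floor of 5.18 and may be background, so the excess is at least 4.23-fold. The other genes near ALDH1A2 differed less: TCF12 by 0.37, ADAM10 by 0.33, MINDY2 by -0.45, CGNL1 by -0.04 and AQP9 by -0.12. Next to CRABP2, the intermediate filament gene NES, chosen after its value was seen, was at 10.64 and 8.91 (difference 1.73), while BCAN, the next gene on that side, differed by -0.20. Around CYP26A1, which was under the floor, 4 of 6 neighbours were called higher, HHEX by 1.98, CEP55 by 1.36, KIF11 by 1.09 and EXOC6 by 1.09, also chosen after their values were seen. All 6 neighbours of RARB lay above the floor in both lines although RARB itself did not, and 5 of them were called higher, from 0.50 (TOP2B) to 1.17 (NGLY1).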
